A study of Rattus norvegicus with 9 samples.

Results

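The 10 genes described here belong to the vessel lining and its growth signals in rat bone: Pecam1, Cdh5, Emcn and Vwf, the receptors Tek, Kdr, Flt1 and Flt4, the ligand gene Vegfa, and Sh2d2a, an adaptor gene. They were picked by symbol, with earlier results of these data known. All 10 members had a row among the 23026 genes of the deposited tables and passed the filter on low counts that left 16874 genes tested. Frozen femur RNA came from female Sprague–Dawley rats bought at 8 weeks of age and acclimatised for 1 week, with 3 libraries in each of 3 groups. Sham rats lost fat tissue but kept their ovaries, OVX rats had both ovaries removed, and OVX-AS-IV-High rats (the treated group) were ovariectomized and, from 6 weeks after surgery, gavaged for 8 weeks with astragaloside IV (AS-IV, a compound of Astragalus root) at 80 mg/kg. Sham and OVX rats received the vehicle alone, sodium carboxymethyl cellulose (CMC-Na), which the methods give as 1%, whereas the labels of Sham replicates 1, 2 and 3 read 1%, 2% and 3%. Per the methods, AS-IV was also prepared in 1% CMC-Na. No group kept its ovaries while receiving AS-IV, and 3 of the 5 rats that each group of the study held were sequenced.

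Vascular endothelial growth factor A, the product of Vegfa, is secreted by many cells of bone and signals to the endothelium mainly through the receptor tyrosine kinase VEGFR2 (Kdr). VEGFR1 (Flt1) binds the same ligand tightly but signals weakly and also exists as a soluble decoy, VEGFR3 (Flt4) serves the lymphatic ligands and is also made by marrow sinusoids, and Tek (Tie2) is the receptor for the angiopoietins. In long bones, vessels with high Pecam1 and Emcn lie near the growth plate and are associated with bone formation, whereas marrow sinusoids carry less of both.

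Libraries held between 34874880 and 37298250 counts, and no pair was identical. Levels below are CPM, counts scaled to library size by TMM, and between genes FPKM, which also divides by gene length. The Sham libraries differed in their surroundings: 15 skeletal muscle genes summed to 12408, 8204 and 2238 CPM in Sham replicates 1, 2 and 3, against 2243 to 4614 CPM in OVX and 775 to 6326 CPM in the treated group. As these are bulk bone samples, fewer cells of a type and less RNA per cell cannot be told apart in any value below.

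Endothelium was represented in every library. In FPKM, the Sham order ran from Vegfa (28.7 ± 8.77, mean ± SD, n = 3), Pecam1 (24.8 ± 3.63) and Emcn (21.8 ± 2.21) through Vwf (14.4 ± 4.53), Cdh5 (10.3 ± 2.13), Tek (7.38 ± 0.934) and Kdr (5.94 ± 0.389) down to Flt1 (2.87 ± 0.487), Flt4 (1.91 ± 0.579) and Sh2d2a (0.829 ± 0.145). Neighbours in this order whose Sham libraries did not overlap were Emcn and Vwf, Tek and Kdr, Kdr and Flt1, and Flt4 and Sh2d2a, whereas the libraries of every other neighbouring pair overlapped. The gap between Kdr and Flt1 was the one that held in all 3 groups. Pecam1 stood above Emcn in 7 of the 9 libraries and Vegfa above Pecam1 in 4. Kdr varied least across the 9 libraries, with the highest library at 1.24 times the lowest in CPM, followed by Tek at 1.40, while Vegfa reached 2.39 times and Sh2d2a 6.74 times.

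**Figure D1:**
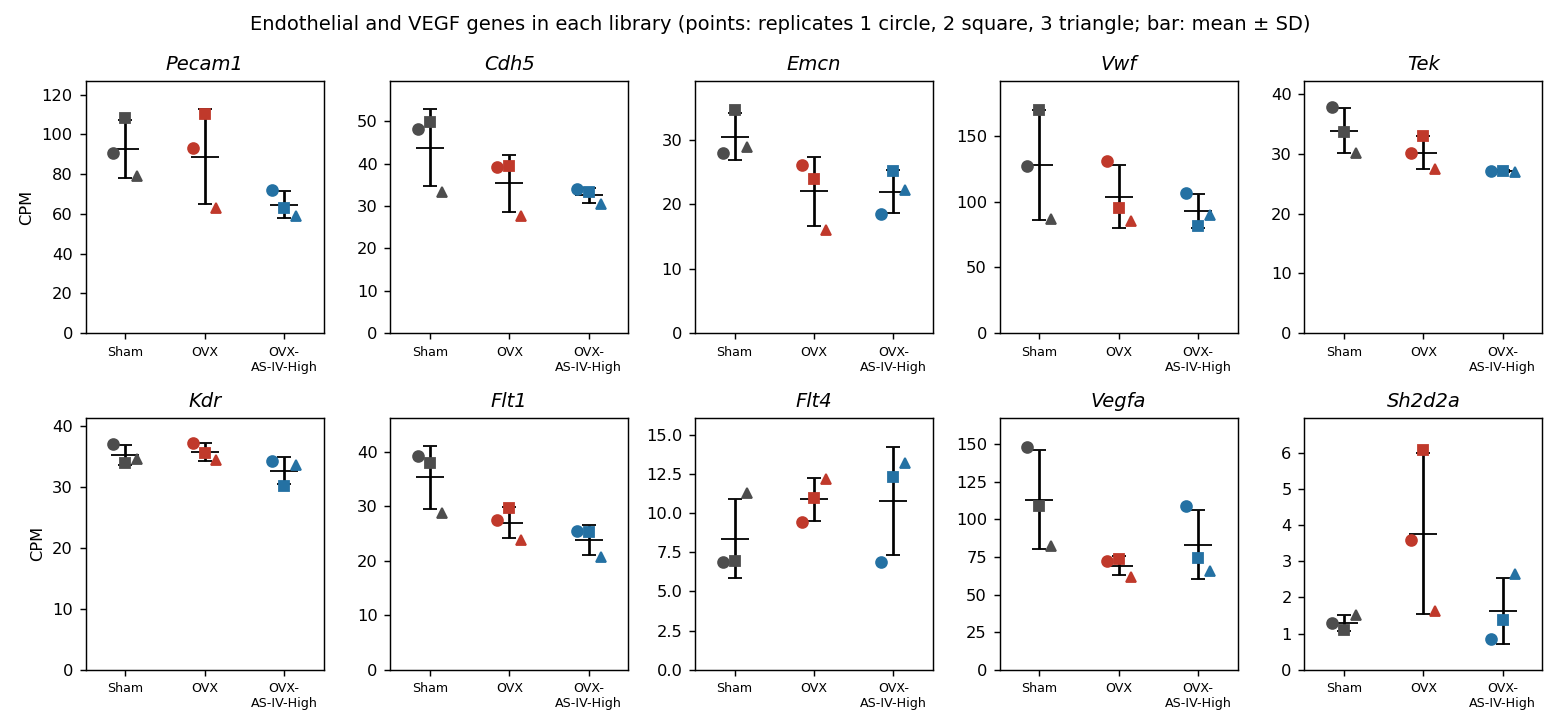
CPM of each gene (y axis, starting at 0) by group (x axis), with 1 point per library, the mean as a bar and the SD as whiskers (n = 3). Vegfa and Emcn lay lower in every OVX library than in every Sham library, Kdr stayed between 30.1 and 37.2 CPM throughout, and Sh2d2a reached 6.07 CPM in OVX replicate 2.

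The OVX vs. Sham comparison addresses what loss of the ovaries does to the bone transcriptome. Vegfa, Emcn and Flt1 were lower in OVX and Sh2d2a was higher at an unadjusted p under 0.05 in the edgeR quasi-likelihood test, which makes 4 of 10 members (1 higher and 3 lower) where 16.4% of all 16874 genes passed (8.16% higher and 8.28% lower). Because the members, Sh2d2a among them, were chosen with earlier results known, member counts here and below are descriptions only. After Benjamini-Hochberg adjustment, 0 members and 0 of 16874 genes passed 0.05 in edgeR, against 2775 genes at the unadjusted threshold, while DESeq2 gave 0 members and 834 genes. The libraries did not overlap for 3 members, against 23.3% of all genes (12.7% higher and 10.6% lower): Emcn and Vegfa were lower in every OVX library and Sh2d2a was higher. The members' median log2FC was -0.23, beside -0.01 over all genes tested. Differentially expressed genes (DEGs) were counted by both size rules in use for these data, an unadjusted p under 0.05 with an absolute log2FC over 0.58 (the rule stated in the methods) or over 1 (the stricter rule). Of these 4 members, Sh2d2a met both rules and Vegfa the rule at 0.58, where 6.96% of genes met the rule at 0.58 and 3.11% that at 1.

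The treated vs. OVX comparison asks what the compound does in ovariectomized rats. Pecam1 and Sh2d2a were lower in the treated group at an unadjusted p under 0.05, 2 of 10 members where 6.45% of all genes passed (4.42% higher and 2.03% lower), and Sh2d2a alone met the DEG rules, as did 0.830% of genes at a log2FC over 1 and 2.19% at one over 0.58. No member had an adjusted p under 0.05 in edgeR or in DESeq2, and over all genes the edgeR count was 0 at the adjusted threshold and 1089 at the unadjusted threshold, with 37 adjusted calls in DESeq2. Kdr and Tek lay lower in every treated library than in every OVX library, 2 members (0 higher) where 12.7% of all genes did not overlap (6.38% higher and 6.36% lower), but with RLE size factors in place of TMM this count was 0. The members' median log2FC was -0.14, beside -0.02 over all genes tested. Both comparisons share the OVX libraries, so the values of a gene in them are not independent.

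In treated vs. Sham, which shares its libraries with the other 2 comparisons, 5 of 10 members (Pecam1, Cdh5, Emcn, Flt1 and Tek) were lower and 0 were higher at an unadjusted p under 0.05, where 17.6% of all genes passed (9.17% higher and 8.48% lower). Again edgeR gave 0 members and 0 of all genes past the adjusted threshold, with 2978 genes at the unadjusted threshold. DESeq2 gave 1009 adjusted calls, among them Flt1 with an adjusted p of 0.0259 (0.0259 to 0.373 over all alternatives). Pecam1, Emcn, Flt1 and Tek were lower in every treated library than in every Sham library, 4 members (0 higher) where 19.9% of all genes did not overlap (9.61% higher and 10.3% lower), and 0 members met either DEG rule, where 3.15% of genes did at a log2FC over 1 and 6.92% at one over 0.58. The members' median log2FC was -0.44, beside -0.01 over all genes tested.

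**Figure D2:**
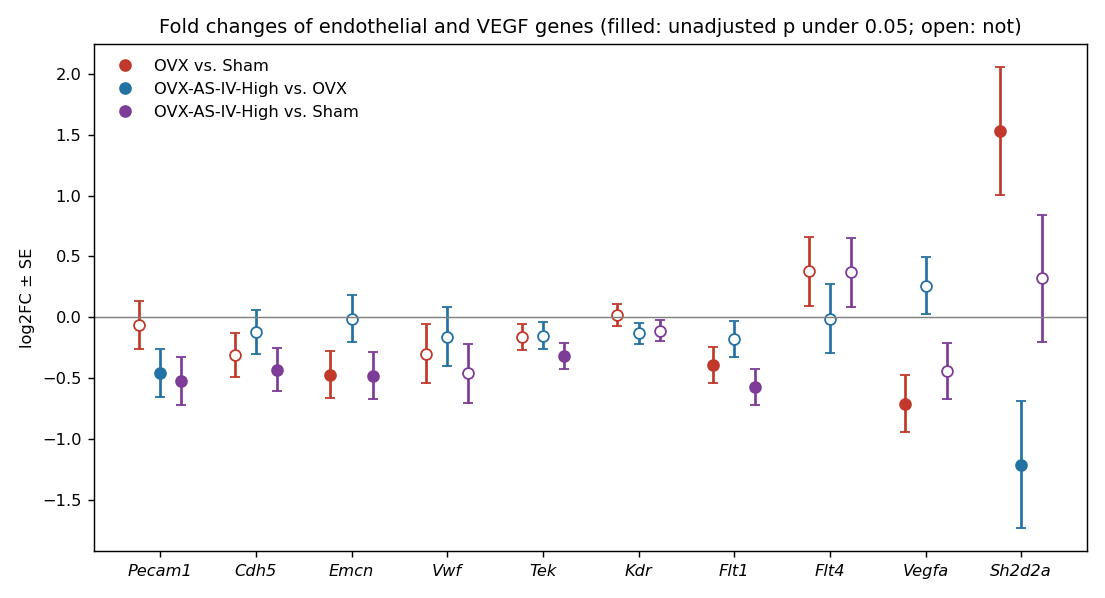
Log2FC (y axis) with its SE for each gene (x axis) in the 3 comparisons, filled where the unadjusted p of edgeR was under 0.05. Sh2d2a lay at 1.53 in OVX vs. Sham and at -1.21 in treated vs. OVX, and every other point lay between -0.71 and 0.38.

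Pecam1 encodes CD31, an adhesion molecule of endothelial junctions that is also found on platelets and several white blood cells. It measured 90.7, 108 and 79.0 CPM in Sham replicates 1, 2 and 3, 93.2, 110 and 63.0 CPM in OVX and 71.9, 62.9 and 58.9 CPM in the treated group. OVX replicate 3 was thus low and the other OVX libraries lay within or just above the Sham range, while all treated libraries lay below Sham. The log2FC was -0.06 (SE 0.197, edgeR adjusted p = 0.900) in OVX vs. Sham, -0.46 (SE 0.197, adjusted p = 0.765) in treated vs. OVX and -0.52 (SE 0.197, adjusted p = 0.227) in treated vs. Sham. The value against OVX left the unadjusted threshold without Sham replicate 1 (log2FC -0.45), OVX replicates 1 (-0.43) or 2 (-0.28) or treated replicates 2 (-0.44) or 3 (-0.40), and also with RLE factors (-0.45), in a fit of only these 2 groups (-0.46) or in limma without a filter (-0.44). The value against Sham left it without Sham replicate 2 (-0.39) or treated replicates 2 (-0.50) or 3 (-0.46).

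Cdh5 encodes VE-cadherin, the adhesive cadherin of endothelial junctions and the most endothelium-restricted of the junction genes here. Its levels were 48.2, 49.8 and 33.4 CPM in Sham, 39.2, 39.4 and 27.6 CPM in OVX and 33.9, 33.2 and 30.4 CPM in the treated group. Replicate 3 was the lowest library of each group, and Sham replicate 3 lay among the OVX and treated libraries. The log2FC of Cdh5 was -0.31 (SE 0.178, edgeR adjusted p = 0.396) in OVX vs. Sham and -0.12 (adjusted p = 0.953) in treated vs. OVX, with -0.43 (SE 0.179, adjusted p = 0.259) in treated vs. Sham. Without Sham replicate 3 the OVX vs. Sham value was -0.47 and passed the unadjusted threshold, and the treated vs. Sham value left it without Sham replicates 1 (-0.35) or 2 (-0.32) or treated replicates 1 (-0.46), 2 (-0.45) or 3 (-0.38) and in the 3 limma alternatives (-0.38 to -0.42).

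Emcn encodes endomucin, a sialomucin of capillary, venous and sinusoidal endothelium that covers the luminal surface. Sham replicates 1, 2 and 3 held 28.0, 34.7 and 28.9 CPM, OVX replicates 26.2, 24.0 and 16.0 CPM, and treated replicates 18.5, 25.2 and 22.2 CPM. No library of the ovariectomized rats, treated or not, reached the lowest Sham library, and the OVX and treated libraries overlapped. OVX stood at 0.723 times Sham (log2FC -0.47, SE 0.193, edgeR adjusted p = 0.274) and the treated group at 0.719 times Sham (log2FC -0.48, SE 0.193, adjusted p = 0.252), with a log2FC of -0.01 (adjusted p = 0.998) between them. The OVX vs. Sham value left the unadjusted threshold without Sham replicates 2 (log2FC -0.36) or 3 (-0.50), OVX replicate 3 (-0.28) or treated replicate 3 (-0.47) and in limma without a filter (-0.44), and the treated vs. Sham value without Sham replicate 2 (-0.37) or treated replicates 1 (-0.37) or 3 (-0.48).

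Vwf encodes von Willebrand factor, which endothelium stores in Weibel-Palade bodies and megakaryocytes pack into platelet granules. It measured 127, 170 and 86.8 CPM in Sham, 131, 95.4 and 85.2 CPM in OVX and 107, 81.9 and 90.2 CPM in the treated group, so that all groups overlapped. The log2FC was -0.30 (SE 0.242, edgeR adjusted p = 0.534) in OVX vs. Sham, -0.16 (adjusted p = 0.958) in treated vs. OVX and -0.46 (adjusted p = 0.362) in treated vs. Sham. Without Sham replicate 3 the OVX and treated values against Sham were -0.51 and -0.67, both past the unadjusted threshold. The 9 megakaryocyte and platelet genes tested, of 10 listed, were highest in the same 4 libraries as Vwf: they summed to 1211, 1645 and 927 CPM in Sham, 1443, 975 and 956 CPM in OVX and 1125, 897 and 980 CPM in the treated group, and none of the 9 was at 0. Of these genes 0 passed the unadjusted threshold in OVX vs. Sham or in treated vs. OVX, and Pf4, which encodes platelet factor 4, had a log2FC of -0.36 (adjusted p = 0.482) in OVX vs. Sham. The part of these cells in the Vwf values was not tested.

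Tek was lower in the treated rats than in Sham and spread least within that group. The receptor gene held 37.8, 33.6 and 30.2 CPM in Sham, 30.1, 33.0 and 27.5 CPM in OVX, and 27.2, 27.2 and 27.0 CPM in the treated group. Every treated library lay below every other library, and Sham and OVX overlapped. The treated group stood at 0.802 times Sham (log2FC -0.32, SE 0.108, edgeR adjusted p = 0.190), a value that left the unadjusted threshold without Sham replicate 1 (log2FC -0.23). The log2FC was -0.16 (SE 0.108, adjusted p = 0.449) in OVX vs. Sham and -0.15 (SE 0.108, adjusted p = 0.917) in treated vs. OVX.

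Kdr and Flt1, both receptors for VEGF-A, are set side by side. Kdr measured 37.0, 33.9 and 34.5 CPM in Sham, 37.2, 35.5 and 34.4 CPM in OVX and 34.2, 30.1 and 33.6 CPM in the treated group, with Sham and OVX overlapping over most of their range. Its log2FC was 0.02 (SE 0.0874, edgeR adjusted p = 0.913) in OVX vs. Sham, -0.13 (SE 0.0874, adjusted p = 0.913) in treated vs. OVX and -0.11 (SE 0.0875, adjusted p = 0.554) in treated vs. Sham. Flt1 measured 39.2, 38.0 and 28.7 CPM in Sham, 27.5, 29.7 and 23.9 CPM in OVX and 25.4, 25.3 and 20.7 CPM in the treated group. All treated libraries of Flt1 lay below Sham, and OVX replicate 2 alone reached above the lowest Sham library.

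The log2FC of Flt1 was -0.39 (SE 0.147, edgeR adjusted p = 0.246) in OVX vs. Sham, -0.18 (SE 0.148, adjusted p = 0.928) in treated vs. OVX and -0.57 (SE 0.148, adjusted p = 0.125) in treated vs. Sham. The last of these, at 0.675 times Sham, had the smallest p of any member and kept its side of the unadjusted threshold in each of the 9 fits without a single library. The OVX vs. Sham value left it without Sham replicates 1 (log2FC -0.31) or 2 (-0.32) or OVX replicates 1 (-0.40) or 3 (-0.30), and in each of the 3 limma alternatives (-0.25, -0.34 and -0.25). Against OVX, each treated library was below the OVX library of the same number (3 of 3), though the numbers are not known to pair the libraries. With the replicate block the log2FC was -0.18 and not past the unadjusted threshold. Within libraries, the log2 difference of Flt1 to Kdr was 0.09, 0.17 and -0.27 for Sham replicates 1, 2 and 3, then -0.44, -0.26 and -0.52 for OVX, and -0.43, -0.25 and -0.70 for the treated group. OVX differed from Sham by -0.40 and the treated group from Sham by -0.45 on this log2 scale (two-sided exact permutation p = 0.2 for both, where 3 against 3 cannot go below 0.1), with Sham replicate 3 inside the range of the other groups.

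The windows before the start sites of Kdr and Flt1 are shown because these receptors share a ligand and Flt1 alone passed the unadjusted threshold, beside those of Emcn and Vegfa, which were the members lower in every OVX library. RefSeq promoters of assembly GRCr8 matched 6 of the 10 members (Emcn, Kdr, Flt1, Flt4, Vegfa and Sh2d2a). Each line gives the 250 bases before an annotated start, on the + strand: Kdr at chr14:32571813-32572062, Flt1 at chr12:12333180-12333429, Emcn at chr2:228564289-228564538 and the first of the Vegfa starts at chr9:22452604-22452853. Capitals mark GGAAGT (a core bound by ETS factors), ACGTG (hypoxia-inducible factors) and GGGCGG (Sp1), each searched on both strands, and no capitals overlap.
Kdr: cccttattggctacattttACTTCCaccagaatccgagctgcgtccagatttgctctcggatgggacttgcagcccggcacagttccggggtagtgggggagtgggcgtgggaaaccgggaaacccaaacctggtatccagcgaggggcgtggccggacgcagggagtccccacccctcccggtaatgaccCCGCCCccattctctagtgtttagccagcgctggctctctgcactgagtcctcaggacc
Flt1: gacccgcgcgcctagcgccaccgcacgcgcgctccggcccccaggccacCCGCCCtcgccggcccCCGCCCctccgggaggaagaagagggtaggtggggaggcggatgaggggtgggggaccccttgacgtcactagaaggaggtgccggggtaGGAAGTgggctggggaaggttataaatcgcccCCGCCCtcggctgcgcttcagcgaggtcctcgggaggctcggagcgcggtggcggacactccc
Emcn: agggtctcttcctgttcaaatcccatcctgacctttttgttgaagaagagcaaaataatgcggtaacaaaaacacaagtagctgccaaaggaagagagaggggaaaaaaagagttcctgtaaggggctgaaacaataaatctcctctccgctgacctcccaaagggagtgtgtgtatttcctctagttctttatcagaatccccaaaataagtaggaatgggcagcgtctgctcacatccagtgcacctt
Vegfa: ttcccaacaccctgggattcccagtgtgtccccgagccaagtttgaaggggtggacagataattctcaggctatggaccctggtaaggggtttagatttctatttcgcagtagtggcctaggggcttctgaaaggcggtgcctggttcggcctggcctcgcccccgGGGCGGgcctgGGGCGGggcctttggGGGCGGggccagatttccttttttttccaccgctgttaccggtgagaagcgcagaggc

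GGAAGT stood 231 bases before the start of Kdr and 95 bases before that of Flt1, and in 19.2% of all 33469 promoter windows. GGGCGG stood in 30.5% of all windows, with 1 match in Kdr and 3 each in Flt1, Flt4 and Vegfa. ACGTG, in 16.6% of windows, matched Sh2d2a alone among the members, and TATAAA, in 12.9% of windows and left in lower case, matched Flt1 alone, 75 bases before its start. GC content was 73.2% in the Flt1 window, 61.6% in Kdr, 60.4% in Vegfa and 44.4% in Emcn, beside a median of 51.2% over all windows. These are matches of letters and were not tested as binding sites.

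Flt4, the receptor gene with the lowest FPKM, overlapped between all groups. It measured 6.90, 6.92 and 11.3 CPM in Sham, 9.43, 11.0 and 12.2 CPM in OVX and 6.86, 12.3 and 13.2 CPM in the treated group, with Sham replicate 3 and treated replicate 1 apart from the rest of their groups. Its log2FC was 0.38 (SE 0.284, edgeR adjusted p = 0.509) in OVX vs. Sham, -0.01 (SE 0.283, adjusted p = 0.998) in treated vs. OVX and 0.37 (SE 0.284, adjusted p = 0.526) in treated vs. Sham. Without Sham replicate 3 the values against Sham were 0.66 for OVX and 0.65 for the treated group, and without treated replicate 1 the latter was 0.61, all past the unadjusted threshold.

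Vegfa, the ligand gene, was lower in every OVX library than in every Sham library. Sham replicates 1, 2 and 3 held 148, 109 and 82.6 CPM, OVX replicates 72.5, 73.4 and 61.8 CPM, and treated replicates 109, 74.5 and 65.7 CPM. The Sham libraries were spread widely, OVX narrowly, and treated replicate 1 lay near Sham replicate 2 while the other treated libraries lay near OVX. OVX stood at 0.613 times Sham (log2FC -0.71, SE 0.234, edgeR adjusted p = 0.205), and this left the unadjusted threshold without Sham replicate 1 (log2FC -0.47). The treated group differed from OVX by a log2FC of 0.26 (SE 0.233, adjusted p = 0.937), which was 0.02 without treated replicate 1. Each treated library was above the OVX library of the same number (3 of 3), but the paper states no pairing of these libraries. With the replicate block the log2FC was 0.23 and not past the unadjusted threshold. From Sham the treated group differed by -0.44 (SE 0.233, adjusted p = 0.361), which was -0.69 without treated replicate 1 and -0.62 without Sham replicate 3, both past the unadjusted threshold.

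The 3 libraries highest in Vegfa were also the 3 highest in skeletal muscle genes. The 15 muscle genes tested, of 16 listed, summed to 12408, 8204 and 2238 CPM in Sham replicates 1, 2 and 3, to 4614, 2696 and 2243 CPM in OVX and to 6326, 2959 and 775 CPM in the treated group, and none of the 15 was at 0. All 15 had a log2FC below 0 in OVX vs. Sham, with a median of -1.12, but 0 passed the unadjusted threshold, and skeletal actin Acta1 had a log2FC of -1.79 (adjusted p = 0.335, edgeR). Sham replicate 3 and OVX replicate 3 held nearly the same muscle sum, with Vegfa at 82.6 and 61.8 CPM. The part of muscle RNA in the Vegfa values was not tested. Relative to Kdr in the same library, Vegfa stood at log2 differences of 2.00, 1.68 and 1.26 for Sham, then 0.96, 1.05 and 0.84 for OVX, and 1.67, 1.31 and 0.96 for the treated group. This ratio was lower in every OVX library than in every Sham library, by -0.69 on the log2 scale (two-sided exact permutation p = 0.1, the smallest possible, adjusted p = 0.300 over 12 ratio comparisons).

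Sh2d2a, the member with the largest fold changes in both comparisons with OVX, encodes an SH2 adaptor that binds VEGFR2 in endothelium and is best known from T cells. It was among the genes chosen here with earlier results of these libraries known, and both comparisons in which it met the DEG rules share the OVX libraries, so its opposite directions in them are not independent evidence. Reads were few, with 47, 37 and 54 counts for Sham replicates 1, 2 and 3, then 132, 230 and 60 counts for OVX, and 31, 51 and 96 counts for the treated group, or 1.29, 1.09 and 1.52 CPM, 3.60, 6.07 and 1.63 CPM, and 0.854, 1.38 and 2.64 CPM. OVX replicates 1 and 2 were high, OVX replicate 3 barely exceeded the highest Sham library, and treated replicate 3 exceeded it as well. The log2FC was 1.53 (SE 0.527, edgeR adjusted p = 0.214) in OVX vs. Sham, -1.21 (SE 0.520, adjusted p = 0.767) in treated vs. OVX and 0.32 (SE 0.525, adjusted p = 0.779) in treated vs. Sham. The first left the unadjusted threshold without Sham replicate 2 (log2FC 1.43) or OVX replicate 2 (1.01). The treated vs. OVX value stayed past it in 2 of 9 fits without a single library (without OVX replicate 3 and without treated replicate 3) and left it without OVX replicate 2 (-0.69), treated replicates 1 (-0.91) or 2 (-1.11), OVX replicate 1 (-1.24) or Sham replicates 1, 2 or 3 (-1.20, -1.21 and -1.21). With the replicate number as a block it was -1.25 and no longer past the threshold, nor was it in a fit of only these 2 groups (-1.21) or in limma without a filter (-0.71).

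T-cell genes were high in OVX replicate 2, the library with the highest Sh2d2a. The 17 T and NK genes tested, of 18 listed, summed to 226, 225 and 283 CPM in Sham, 258, 386 and 309 CPM in OVX and 269, 284 and 323 CPM in the treated group, with the highest sum in OVX replicate 2 and no gene of the 17 at 0. Most of each sum came from Nkg7 (117, 100 and 89.4 CPM in Sham, 131, 155 and 148 CPM in OVX) and Cd4 (60.9, 70.0 and 142 CPM, then 74.8, 96.6 and 104 CPM). OVX replicate 1, next highest in Sh2d2a at 3.60 CPM, had a sum of 258 CPM, within the Sham range. The top of that range, 283 CPM in Sham replicate 3, included the 142 CPM of Cd4. Single genes of OVX replicate 1 went both ways. Cd247 (2.10 CPM), Zap70 (2.43 CPM) and Lck (16.7 CPM) lay above every Sham library, and Cd3d (0.763 CPM) and Cd2 (1.74 CPM) below every one. Treated replicate 3, next highest in the sum at 323 CPM, held 2.64 CPM of Sh2d2a. Of the 17, 4 were higher and 0 lower at an unadjusted p under 0.05 in OVX vs. Sham (all genes: 8.16% higher), with a median log2FC of 0.71. In treated vs. OVX 1 was lower (all genes: 2.03% lower). Cd3e, a chain of the T-cell receptor complex, measured 2.14, 1.85 and 2.39 CPM in Sham, 2.78, 9.92 and 1.82 CPM in OVX and 2.86, 3.87 and 3.16 CPM in the treated group (log2FC 1.18 in OVX vs. Sham, edgeR adjusted p = 0.317). Cd96, a receptor of T and NK cells, had a log2FC of 1.06 (edgeR adjusted p = 0.206) in OVX vs. Sham and of -1.03 (adjusted p = 0.658) in treated vs. OVX. Relative to Cd3e in the same library, Sh2d2a differed by 0.53 on the log2 scale in OVX vs. Sham and by -0.97 in treated vs. OVX (two-sided exact permutation p = 0.2 for both, adjusted p = 0.300). The part of T cells in the Sh2d2a values was not tested.

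**Figure D3:**
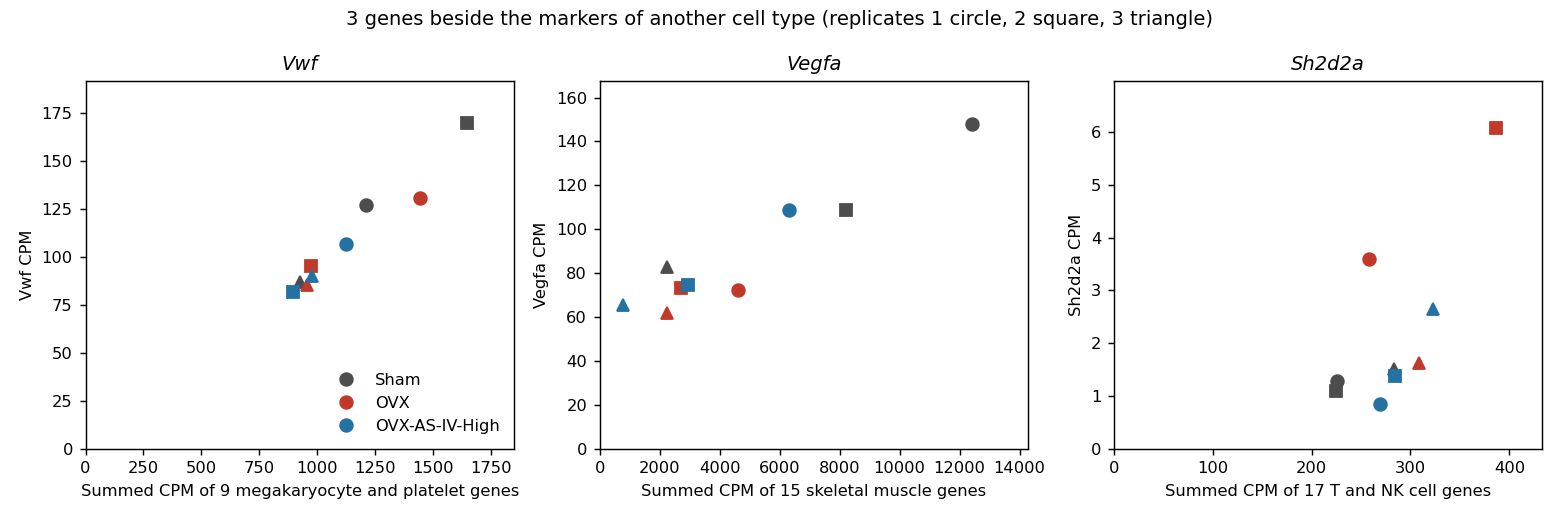
CPM of Vwf, Vegfa and Sh2d2a (y axes) against the summed CPM of megakaryocyte and platelet, skeletal muscle, and T and NK cell genes (x axes), 1 point per library. The highest library of each gene (170, 148 and 6.07 CPM) was also the highest for its marker sum (1645, 12408 and 386 CPM). OVX replicate 1, next highest in Sh2d2a (3.60 CPM), had a T and NK sum of 258 CPM, within the Sham range. Most of each T and NK sum came from Nkg7 and Cd4.

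Other genes of endothelium gave a frame for the members. A list of 20 genes of vessel lining cells outside the members, all tested and none at 0, summed to 765, 719 and 569 CPM in Sham, 530, 549 and 465 CPM in OVX and 514, 477 and 457 CPM in the treated group. Neither ovariectomized group overlapped with Sham. In OVX vs. Sham, 8 of 20 were lower and 0 higher at an unadjusted p under 0.05 (all genes: 8.28% lower) with a median log2FC of -0.52. In treated vs. OVX 0 of 20 passed with a median of -0.11. In treated vs. Sham 11 of 20 were lower and 0 higher (all genes: 8.48% lower) with a median of -0.62. Adjusted over all genes, 0 of 20 passed in any comparison. Rasip1, a Ras-interacting protein needed for vessel lumens, measured 42.5, 35.7 and 26.3 CPM in Sham and 21.0, 19.4 and 17.2 CPM in OVX (log2FC -0.86, SE 0.172, edgeR adjusted p = 0.138). Mmrn2, a matrix protein of endothelium, had a log2FC of -0.80 (SE 0.171, adjusted p = 0.138), whereas the receptor gene Tie1 was at -0.01 (adjusted p = 0.974) and the guidance receptor gene Robo4 at -0.34 (adjusted p = 0.410). Leaving out Sham replicate 3 took the OVX vs. Sham count from 8 to 13, and the share of all genes from 16.4% to 25.2%. Skeletal muscle genes summed to 12408, 8204 and 2238 CPM in the same Sham libraries. Their sums were 4614, 2696 and 2243 CPM in OVX and 6326, 2959 and 775 CPM in the treated group. Replicate 3 was the lowest library of its group in both the muscle and the endothelial sum. Sham replicate 3 and OVX replicate 3, nearly equal in muscle, held 569 and 465 CPM of the endothelial genes. The part of skeletal muscle in the endothelial sums was not tested.

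The members were also set against the mean log2 CPM of these 20 genes in the same library. This reference was itself lower by -0.48 on the log2 scale in OVX vs. Sham, and on the relative scale the median of all 16874 genes differed by 0.47, with 86.8% of all genes above 0 beside 8 of 10 members. Values above 0 are thus to be read against that median. Kdr stood at 0.36, 0.32 and 0.73 above this reference in Sham and at 0.91, 0.82 and 1.18 in OVX, a difference of 0.50 on the log2 scale with no overlap. Pecam1 (0.39), Tek (0.32) and Sh2d2a (1.80) were likewise higher in every OVX library, each with a two-sided exact permutation p of 0.1, the smallest that 3 against 3 allows. Flt1 (0.10), Cdh5 (0.17), Emcn (-0.02) and Vegfa (-0.19), in contrast, overlapped between OVX and Sham on this scale, as did Vwf (0.21) and Flt4 (0.88). In treated vs. OVX, Pecam1 was lower (-0.33) and Vegfa higher (0.33) in every treated library, and in treated vs. Sham, Kdr (0.47) and Tek (0.26) were higher in every treated library (exact permutation p = 0.1 each). Of these 30 comparisons 8 did not overlap, and the smallest adjusted p was 0.375. Over all genes, 34.3% did not overlap on this scale in OVX vs. Sham (33.2% higher), beside 4 of 10 members, 7.05% in treated vs. OVX (5.97% higher and 1.08% lower), beside 2, and 43.7% in treated vs. Sham (42.8% higher), beside 2, where the reference differed by -0.57 and the median gene by 0.56. Emcn to Pecam1 within libraries, a ratio of 2 vessel markers, was lower in every OVX library than in Sham by -0.41 on the log2 scale (exact permutation p = 0.1, adjusted p = 0.300) and overlapped in the other comparisons.

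**Figure D4:**
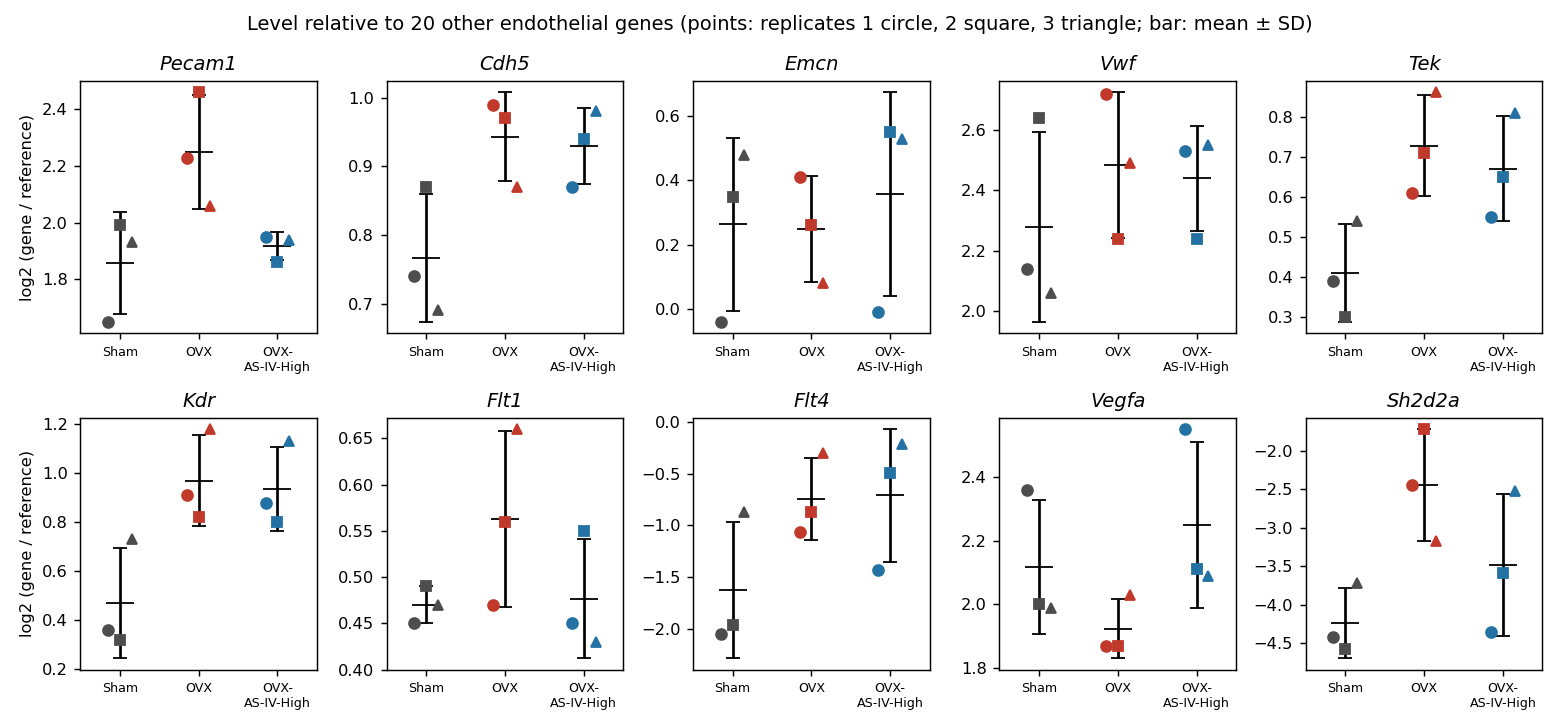
Log2 CPM of each gene minus the mean log2 CPM of 20 other endothelial genes in the same library (y axes, which do not start at 0), by group, with mean and SD (n = 3). Kdr, Tek, Pecam1 and Sh2d2a lay higher in every OVX than in every Sham library, by 0.50, 0.32, 0.39 and 1.80, where the median of all genes was higher by 0.47.

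The other VEGF family genes were few. Of 6 ligands, receptors and coreceptors tested, 1 was lower and 1 higher at an unadjusted p under 0.05 in OVX vs. Sham (all genes: 8.28% lower and 8.16% higher), and 0 passed in treated vs. OVX (all genes: 6.45%). Vegfb, a ligand of VEGFR1, was the lower gene, at 21.5, 23.3 and 19.6 CPM in Sham, 15.3, 15.8 and 14.2 CPM in OVX and 16.0, 13.8 and 12.5 CPM in the treated group, with no overlap of Sham with either (OVX vs. Sham log2FC -0.51, SE 0.129, edgeR adjusted p = 0.151). Nrp2, a coreceptor of VEGFR3, was the higher gene (log2FC 0.48, edgeR adjusted p = 0.260), and Nrp1, a coreceptor of VEGFR2, had a log2FC of -0.39 (adjusted p = 0.331). Among 6 angiopoietin, Tie and related genes, 0 passed in OVX vs. Sham or in treated vs. OVX. The 6 include Angptl4, an angiopoietin-like gene, and Tie1, which is also one of the 20 endothelial genes above. Angpt2, the context-dependent Tek ligand, had a log2FC of 0.27 (edgeR adjusted p = 0.581) in OVX vs. Sham.

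Downstream and neighbouring pathways were read against the shares of all genes. These were 8.16% higher and 8.28% lower in OVX vs. Sham, and 4.42% higher and 2.03% lower in treated vs. OVX. Of 24 genes of signalling inside the cell from VEGF receptors, 3 were higher and 7 lower at an unadjusted p under 0.05 in OVX vs. Sham, and 3 were higher and 0 lower in treated vs. OVX. Nos3 (log2FC -0.96 in OVX vs. Sham), among the 7 lower, is also one of the 20 endothelial genes above. Ptk2, which encodes focal adhesion kinase, was lower in OVX (log2FC -0.45, SE 0.0938, edgeR adjusted p = 0.138), as was the sphingosine kinase gene Sphk1 (-0.74, adjusted p = 0.140), and the adaptor gene Nck1 was higher in the treated rats than in OVX (0.34, adjusted p = 0.678). Ptgs2, the gene of the prostaglandin enzyme COX-2 and one of the hub genes the study picked from these libraries, had a log2FC of -1.36 (edgeR adjusted p = 0.153) in OVX vs. Sham and of 1.61 (adjusted p = 0.652) in treated vs. OVX. Of 11 Notch genes of vessels, 1 was higher and 5 lower in OVX vs. Sham and 1 was higher in treated vs. OVX. The venous receptor gene Ephb4 (-0.33, edgeR adjusted p = 0.167) and the ligand gene Jag1 (-0.55, adjusted p = 0.177) were lower in OVX, the tip-cell ligand gene Dll4 was at -0.25 (adjusted p = 0.609), and the Notch target Hes1 was higher in the treated rats than in OVX (0.63, adjusted p = 0.652).

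Hypoxia genes include regulators of Vegfa. Of 19 tested, 3 were higher and 2 lower at an unadjusted p under 0.05 in OVX vs. Sham, with a median log2FC of 0.11, where 8.16% of all genes were higher and 8.28% lower. In treated vs. OVX 1 was higher, where 6.45% of all genes passed. The glycolytic enzyme gene Eno1 was higher in OVX (0.44, SE 0.0927, edgeR adjusted p = 0.138), as was Vhl (0.29, adjusted p = 0.206), whose product marks hypoxia-inducible factors for breakdown. Hif1a held 72.7, 62.6 and 75.1 CPM in Sham, 73.9, 81.3 and 78.5 CPM in OVX and 132, 108 and 78.8 CPM in the treated group, with a log2FC of 0.15 (adjusted p = 0.653) in OVX vs. Sham and of 0.45 (adjusted p = 0.706) in treated vs. OVX.

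Markers of vessel types and of the vessel wall were also read. Of 11 genes of sinusoidal and lymphatic endothelium tested, 3 were lower and 0 higher in OVX vs. Sham, where 8.28% of all genes were lower. The median log2FC of the 11 was -0.15, with 7 below 0 and 4 above, among the latter Stab2 (0.12). Stab1, a scavenger receptor gene, led the lower genes, at 80.7, 63.8 and 59.3 CPM in Sham and 35.2, 43.3 and 34.9 CPM in OVX (log2FC -0.85, SE 0.137, edgeR adjusted p = 0.118). Il6st (-0.47, adjusted p = 0.151), which encodes a cytokine receptor chain also made elsewhere, was another. Of 8 arterial genes, 1 was higher in OVX vs. Sham, the Notch target Hey1 (0.47, edgeR adjusted p = 0.289), and the other 7 had a log2FC below 0 without passing (median of the 8, -0.16). In treated vs. OVX 1 was higher, the kinase gene Bmx (0.66, adjusted p = 0.759), and 6 of 8 were below 0 (median -0.13). Pericyte and vessel smooth muscle genes are included, with 6 of 12 lower and 0 higher in OVX vs. Sham (all genes: 8.28% lower) and 0 of 12 passing in treated vs. OVX. Their sums were 1014, 908 and 427 CPM in Sham, 478, 445 and 325 CPM in OVX and 533, 418 and 318 CPM in the treated group, so that Sham replicate 3 lay among the other groups. Des alone held 435, 383 and 71.8 CPM of these sums in Sham, 146, 77.2 and 59.7 CPM in OVX and 208, 71.4 and 26.0 CPM in the treated group. The skeletal muscle genes summed to 12408, 8204 and 2238 CPM in Sham, and the part of skeletal muscle in the vessel wall sums was not tested. The contractile genes Myh11 (-1.55, edgeR adjusted p = 0.153) and Cnn1 (-1.90, adjusted p = 0.167) led the vessel wall list, while the pericyte receptor gene Pdgfrb was at -0.05 (adjusted p = 0.872). Among the 6 lower genes was also Pdgfb (-0.46, edgeR adjusted p = 0.239), which encodes a ligand and does not mark the vessel wall cells themselves. The part of pericytes and vessel smooth muscle in the members' values was not tested.

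**Figure D5:**
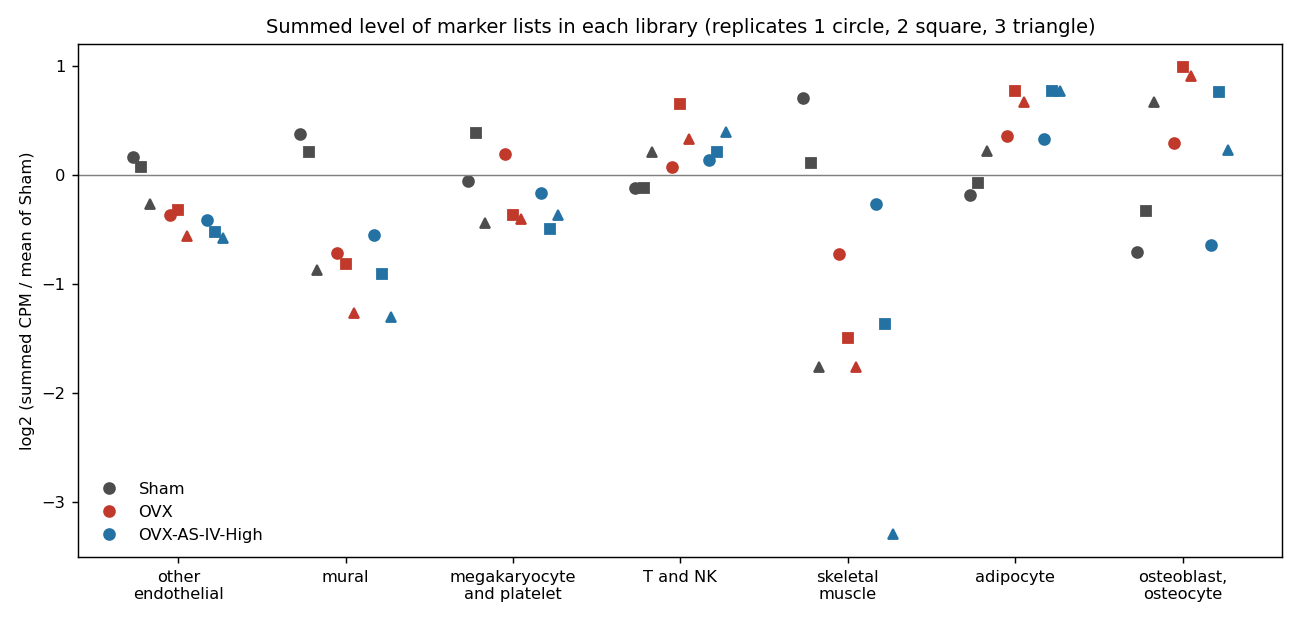
Summed CPM of 7 marker lists in each library as log2 of its ratio to the Sham mean (y axis). The 20 other endothelial genes lay lower in all OVX and treated libraries (457 to 549 CPM) than in all Sham libraries (569 to 765 CPM), whereas skeletal muscle spanned 775 to 12408 CPM.

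Likeness across the 9 libraries was measured as the mean absolute difference of log2 CPM after centring each gene, for 3 of the members. Closest to Cdh5 were Tns1, a focal adhesion protein gene (0.0660), Jam3, a junctional adhesion molecule gene (0.0711), and Crip2 (0.0742), among 14012 genes, and Flt1 held rank 12 with 0.0893. Closest to Vegfa were Sobp (0.0836), Camta2 (0.0863) and the non-coding LOC120094315 (0.0891), among 10696 genes. Closest to Sh2d2a were Cd247 (0.290) and Zap70 (0.325), both of T-cell receptor signalling, and Adra2c (0.345), among 4550 genes. Cd247 reached 5.91 CPM and Zap70 8.63 CPM in OVX replicate 2, the library in which Sh2d2a was also highest. All genes share the same libraries, so these distances are descriptions without a test.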

How the data were processed

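RNA-seq libraries of bone from 9 rats were grouped by the sample labels. Separate tables hold what the authors deposited: unnormalized counts, whole numbers for each gene, and FPKM, which in all 11928 genes with at least 100 counts per library were the same counts rescaled (within 1%). Per the methods and labels, reads were filtered, aligned with Tophat and Bowtie2 and quantified with eXpress, on the build mRatBN 7.2. How the estimates of eXpress became whole numbers is not given in the sources used here. The study describes the libraries of a group as independent biological replicates.

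Counts were tested with edgeR 4.0.16 (R 4.3.3): TMM scaling, filterByExpr (minimum count 10), 1 quasi-likelihood fit over all 9 libraries, two-sided, Benjamini-Hochberg adjustment over 16874 genes. Log2 CPM used a prior count of 2. DEGs had p under 0.05 and absolute log2FC over 1, or over 0.58. Ratios were tested with exact permutations in Python 3.11.15 (numpy 2.4.6, scipy 1.17.1, pandas 2.3.3), and plots drawn with matplotlib 3.10.9. The test was checked on simulated counts with known changes. The alternatives were RLE factors, no filter, only 2 groups, a replicate block, each library left out, DESeq2 1.42.0, and limma 3.58.1 on log2(FPKM + 1) or log2(FPKM + 0.1). Members and lists were chosen with earlier results of these data known. All 10 members were named, and from each other list the 2 genes with the smallest p under 0.05 in each of OVX vs. Sham and treated vs. OVX (treated: OVX-AS-IV-High), plus 13 defining genes. A gene that this rule named is not reported here. For Cdh5, Vegfa and Sh2d2a, the 3 most alike genes were named among those with at least 1/2 of the member's range.

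The paper states no pairing of libraries between groups, and the replicate block was run only as an alternative. Deviations of same-numbered libraries from their group means had correlations of 0.31, 0.158 and 0.13 for OVX with OVX-AS-IV-High. The correlations were 0.2, -0.161 and 0.253 for Sham with OVX, and 0.314, -0.158 and 0.435 for Sham with OVX-AS-IV-High. These values can neither establish nor exclude a pairing or a shared batch, because libraries of different numbers were not correlated for comparison. The RefSeq promoter table, on GRCr8, was used for sequences only.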

Additional observations from a re-analysis of the deposited data

How the results depend on the processing

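Of 510 recomputed log2FC of the members, 435 kept their direction and side of the unadjusted threshold, 48 lost it, 10 gained it and 17 changed sign, and the cause was not tested. With 1 library left out, the number of members at p under 0.05 ran from 1 to 6 in OVX vs. Sham (4 with all; 1 without Sham replicate 2, 6 without Sham replicate 3), from 0 to 2 in treated vs. OVX (2 with all) and from 2 to 8 in treated vs. Sham (5 with all; 2 without Sham replicate 2, 8 without Sham replicate 3). The shares of all genes moved as well: in OVX vs. Sham from 16.4% to 10.3% without Sham replicate 2 and 25.2% without Sham replicate 3, in treated vs. OVX between 3.95% and 8.32%, and in treated vs. Sham from 17.6% to 11.2% and 23.3% without the same Sham libraries. Members without overlap ran from 3 to 7, from 2 to 6 and from 4 to 8, where 3 libraries against 2 overlap less often in all genes too: the share without overlap then ran from 28.4% to 48.2% (23.3% with all), from 19.0% to 28.1% (12.7%) and from 24.8% to 40.0% (19.9%). Relative levels without overlap ran from 8 to 13 (all genes, by comparison in the same order: 36.4% to 69.9%, 10.4% to 31.6% and 46.1% to 74.6%), and the lower endothelial genes of OVX vs. Sham from 7 to 13.

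In OVX vs. Sham, limma on log2(FPKM + 1) with the filter gave 3 members (Flt1 lost, 16.9% of all genes) and without it 2 (13.9% of all genes). In treated vs. OVX, RLE factors gave 1 member (6.51% of all genes) and 0 without overlap. A fit of only these 2 groups gave 0 (7.02% of all genes), as did limma without a filter (6.25%). With Cdh5 and Pecam1 as the reference, 5 relative levels did not overlap, a count without a share of all genes beside it. The replicate block, for which the paper states no pairing, gave 1 member in treated vs. OVX (7.76% of all genes). Against Sham, the block gave 5 members in OVX (21.8% of all genes) and 6 in the treated group (22.0% of all genes). It also gave 13 lower endothelial genes in OVX vs. Sham. Counts for the endothelial genes were added after the data were seen.

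The values that changed sign were those of 6 members. With single libraries left out, the log2FC ran from -0.24 to 0.14 for Pecam1 and from -0.01 to 0.05 for Kdr in OVX vs. Sham, from -0.20 to 0.13 for Emcn, from -0.18 to 0.23 for Flt4 and from -0.28 to 0.04 for Vwf in treated vs. OVX, and from -0.22 to 0.63 for Sh2d2a in treated vs. Sham. Emcn in treated vs. OVX was 0.00 with RLE factors, the block or DESeq2 and 0.01 without a filter, and Flt4 was 0.00 without a filter. At 31 to 230 counts per library, Sh2d2a had the largest SE of the members.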

Other observations

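Gene lists taken from the deposited annotation gave a wider view of vessel genes. Of 56 tested genes of the KEGG VEGF signaling pathway (58 listed, 3 of them members), 7 were higher and 12 lower at an unadjusted p under 0.05 in OVX vs. Sham, 3 higher and 2 lower in treated vs. OVX, and 4 higher and 10 lower in treated vs. Sham, comparisons in which 16.4%, 6.45% and 17.6% of all genes passed. Of 207 tested GO angiogenesis genes (222 listed, 7 members), 22 were higher and 35 lower in OVX vs. Sham, 10 higher and 1 lower in treated vs. OVX, where 4.42% of all genes were higher and 2.03% lower, and 24 higher and 43 lower in treated vs. Sham. Ramp2, a partner of the adrenomedullin receptor (log2FC -0.89, SE 0.124, edgeR adjusted p = 0.118), and Dysf, which encodes the membrane repair protein dysferlin (-0.90, SE 0.130, adjusted p = 0.118), led the genes lower in OVX. The leptin receptor gene Lepr, a marker of marrow stroma, was higher in the treated rats than in OVX (0.67, SE 0.140, edgeR adjusted p = 0.652). Of 24 genes of the GO VEGF receptor pathway (4 members), 2 were higher and 4 lower in OVX vs. Sham, with Mapkapk2 at 0.38 (edgeR adjusted p = 0.153), and 1 was higher in treated vs. OVX, Foxc1 at 0.52 (adjusted p = 0.685).

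Genes of other tissues in the samples are given beside the vessel genes, where 8.16% of all genes were higher and 8.28% lower in OVX vs. Sham. Of 10 adipocyte genes, 7 were higher and 0 lower at an unadjusted p under 0.05 in OVX vs. Sham, with Lep at a log2FC of 2.56 (edgeR adjusted p = 0.129), Plin1 at 1.12 (adjusted p = 0.152) and Adipoq at 1.35 (adjusted p = 0.167), and 0 of 10 passed in treated vs. OVX. Of 12 osteoblast and osteocyte genes, 1 was higher in OVX vs. Sham, Bglap (1.21, edgeR adjusted p = 0.199), which encodes osteocalcin. Chondrocyte genes gave 1 lower of 8, Sox9 (-0.67, edgeR adjusted p = 0.301), neutrophil genes 2 higher of 7, Elane (0.59, adjusted p = 0.149) and Mpo (0.46, adjusted p = 0.160), and erythroid genes 1 lower of 9, Hba-a1 (-0.41, adjusted p = 0.262). Among the T and NK genes, Nkg7 was higher in OVX than in Sham (0.50, edgeR adjusted p = 0.149). In treated vs. OVX, 0 genes of the osteoblast, chondrocyte, neutrophil and erythroid lists passed the unadjusted threshold in edgeR.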
